A study of Rattus norvegicus with 8 samples.

Results

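The complement components examined here are 9 genes, C1qa, C1qb, C1qc, C1s, C1r, C2, C3, Cd59 and Serping1, taken by gene name from the 26514 gene names of a rat expression array. They are carried by 10 of its 30367 probes, with 1 probe for each gene and a second one for C2. RNA came from the lumbar L6S1 spinal cord of male Wistar rats aged 12 weeks. The stressed group (4 rats) underwent chronic water avoidance (WA) stress, 1 h per day for 10 days on a platform surrounded by water, and cords were taken 24 h after the final session. The control group (4 rats) was handled over the 10 days and not exposed to WA stress, and no allele or drug distinguished the groups. Each rat had its own 1-colour Agilent array. The tissue was a whole cord segment with the meninges stripped off, so that neurons, glia and vessels were measured together, and fewer cells of one type cannot be told apart from less RNA per cell.

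Complement is a cascade of plasma proteins that marks cells and synapses for removal. In its classical arm, the protein C1q, assembled from A, B and C chains, recognizes a target. The attached protease C1r then activates C1s, which cleaves the next components, among them C2, to form the enzyme that splits C3. In the central nervous system microglia are a main source of C1q, and C1q and C3 are known for tagging synapses for engulfment. Serping1 encodes the C1 inhibitor, which inactivates C1r and C1s, and Cd59 encodes a membrane protein that blocks assembly of the terminal, pore-forming complex.

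None of the 9 genes passed the test between stressed and control rats. Levels were taken as the log2 processed signal of the scanner software minus the 75th percentile of the same array (scaled log2 signal), so 0 is the level of that percentile. Groups were compared with limma over the 23677 probes whose signal cleared the background on 4 or more of the 8 arrays. All 10 member probes were well above background on all 8 arrays, and none was saturated. At a Benjamini-Hochberg adjusted p below 0.1, limma called 0 of the 10 member probes, where 3.74% of all tested probes were called. At an adjusted p below 0.05 it called 0 of 10 as well, with 0.477% of all probes called. At an unadjusted p below 0.05 again 0 of 10 member probes passed, beside 20.3% of all probes. At 0 of 10 member probes were the groups free of overlap, compared with 12.1% of all probes. In 9 of the 10 probes the mean was lower in stressed rats, beside 9572 of the 23677 tested probes. These 10 were read on the same rats, so their signs are not independent. The median log2 difference (stressed minus control) was -0.12, while the median over all tested probes was 0.06.

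The depth of the comparison is set by the number of arrays. The 95% intervals of the 10 differences, not adjusted for the number of probes, all held 0 and reached from -0.88 to 0.42 on the log2 scale, which is 0.545-fold to 1.34-fold. None of these intervals held a halving or a doubling of the signal. One control array stood apart. On the first principal component of all tested probes, with 54.1% of the variance, control 2 lay at -46.1, on the side of the stressed arrays (-34.5 to -8.23) and beyond them, and the other 3 controls lay between 39.4 and 56.3. The 5′ minus 3′ difference compares, within an array, the outermost tested probes on the 5′ and 3′ sides of the same transcripts. It is centred over the arrays, so its sign is relative to the other arrays. It was 0.22 in control 2, from 0.09 to 0.17 in stressed rats and from -0.30 to -0.18 in the other controls. Without control 2, limma called 42.4% of all probes at an adjusted p below 0.1 and still 0 of the 10 member probes. When this 5′ to 3′ measure entered the fit as a covariate, 10.1% of all probes and 0 of the 10 member probes were called. All arrays lay on 1 slide, stressed in row 1 and control in row 2, so row and stress cannot be told apart.

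**Figure D1:**
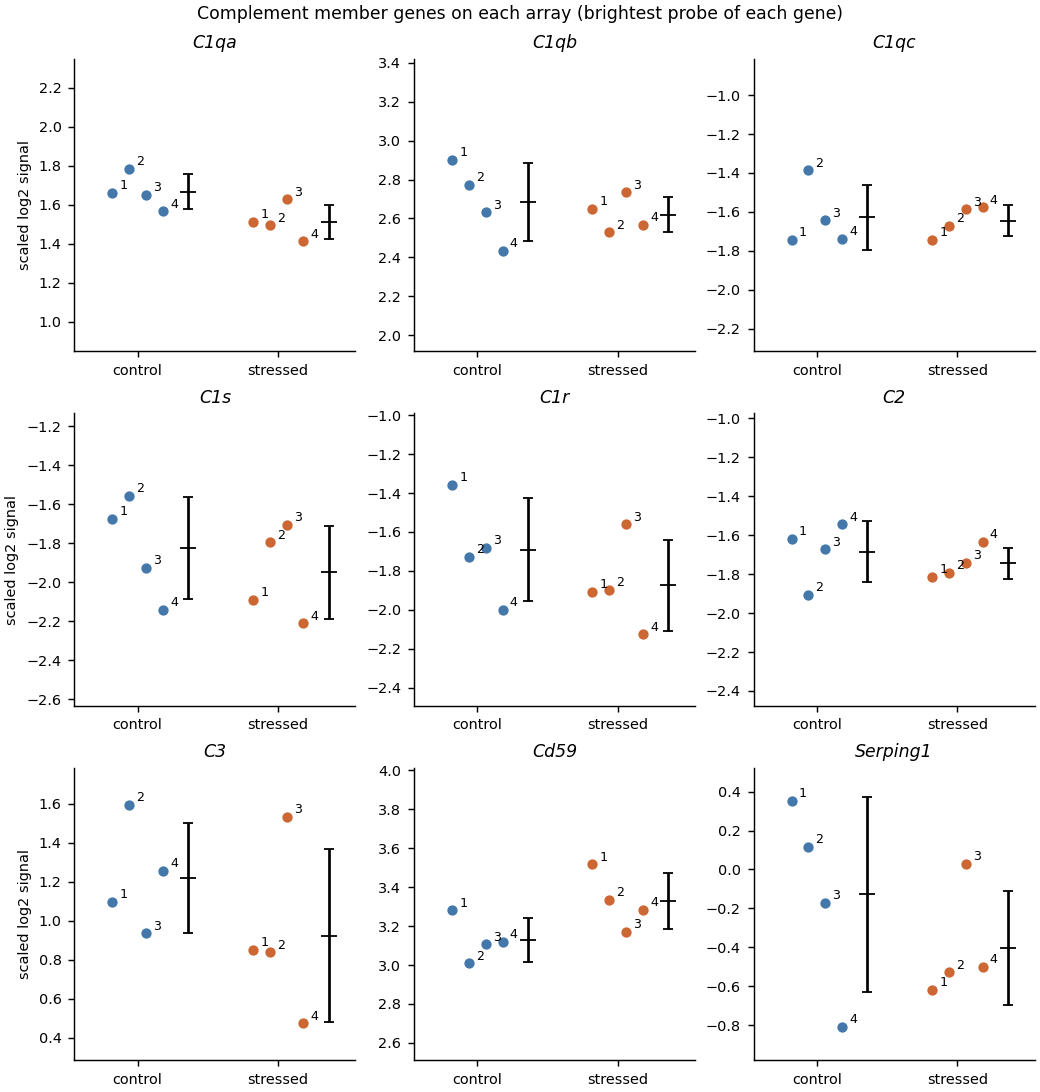
Scaled log2 signal (y axis) of the brightest probe of each member gene on each array. Points are single rats with the replicate number beside them, the bar is the mean ± SD (n = 4), and every panel spans the same range of log2 units. Control and stressed rats overlapped in all 9 panels, and the spread was widest for C3 and Serping1.

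The probes themselves were read from the files, since each value below is the signal at 1 such sequence. Shown first are the probes of the C1q chains, which are the recognition unit, with their positions on the rn4 assembly. C1qa was measured at chr5:155662578-155662637, C1qb at chr5:155647530-155647589 and C1qc at chr5:155656638-155656697, all on the minus strand. The 3 probes thus lie within 15.1 kb, and in the RefSeq annotation of assembly GRCr8 the 3 genes are direct neighbours among protein-coding genes. No rn4 genome was read, so exons were not assigned. For C1qb only the last 30 bases are printed, with the polyadenylation signal AATAAA in capitals, which places this probe at the 3′ end of the message.
C1qa: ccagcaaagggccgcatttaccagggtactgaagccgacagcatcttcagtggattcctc
C1qb: tgttacagaatgggtaAATAAActcttcaa
C1qc: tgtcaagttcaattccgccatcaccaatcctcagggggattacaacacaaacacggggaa

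C1qa had the lowest unadjusted p of the C1q chains. Its scaled log2 signal was 1.66, 1.78, 1.65 and 1.57 in control rats 1 to 4 and 1.51, 1.49, 1.63 and 1.41 in stressed rats 1 to 4. The groups overlapped through stressed 3, which lay above control 4, while stressed 1, 2 and 4 lay below every control. The difference was -0.15 (SE 0.0786, 0.899-fold, 95% interval -0.34 to 0.03), with a limma adjusted p of 0.303 and an exact permutation p of 0.0571, where 0.0286 is the smallest p that 4 against 4 arrays allow. Of all tested probes, 45.3% had an absolute log2 difference of this size or smaller.

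C1qb, the B chain, read 2.90, 2.77, 2.63 and 2.43 in controls 1 to 4 and 2.65, 2.53, 2.73 and 2.57 in stressed rats. The stressed rats lay inside the range of the controls. Its difference was -0.07 (SE 0.111, interval -0.32 to 0.19, limma adjusted p = 0.751). C1qc, the C chain, read -1.74, -1.39, -1.64 and -1.74 in controls and -1.74, -1.67, -1.59 and -1.58 in stressed rats. Control 2 was the highest array, and the other 7 lay close together. C1qc differed by -0.02 (SE 0.0984, interval -0.24 to 0.21, limma adjusted p = 0.934), and by 0.06 (SE 0.0655, adjusted p = 0.490) without control 2.

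The C1q chains were also set against each other within each array, which cancels whatever scales all probes of an array alike. The C1qc to C1qa log2 ratio, centred over the arrays, was -0.07 ± 0.10 (SD, n = 4) in controls and 0.07 ± 0.12 in stressed rats. That difference of 0.14 had an exact permutation p of 0.114, or 0.570 after Benjamini-Hochberg adjustment over 5 such ratios. The C1qb to C1qa ratio differed by 0.09 (exact permutation p = 0.314) and the C1qc to C1qb ratio by 0.05, less than its SD of 0.23 in controls. In each of these ratios the groups overlapped.

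C1r and C1s, the proteases bound to C1q, were measured at chr4:160728630-160728689 (plus strand) and chr4:160736725-160736784 (minus strand). Their probes span 8.2 kb, and the 2 genes are neighbours in RefSeq. Both probes, shown whole, are the only ones for these genes on the array. The C1r probe is printed at 10 spots, with an SD between spots of at most 0.07 on the log2 scale on any array, well below the spread between rats.
C1r: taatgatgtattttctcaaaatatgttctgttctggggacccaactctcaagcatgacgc
C1s: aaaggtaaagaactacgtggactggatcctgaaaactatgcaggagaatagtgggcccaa

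C1r, the first protease to be activated, read -1.36, -1.73, -1.68 and -1.999 in controls 1 to 4 and -1.91, -1.90, -1.56 and -2.13 in stressed rats 1 to 4. Control 1 was the highest array and stressed 4 the lowest, with the groups mixed between them. The difference was -0.18 (SE 0.163, interval -0.56 to 0.20, limma adjusted p = 0.541). For C1s, which C1r activates, controls read -1.67, -1.56, -1.93 and -2.14 and stressed rats -2.09, -1.79, -1.71 and -2.21. Control 4, stressed 1 and stressed 4 formed the low end. C1s differed by -0.13 (SE 0.164, interval -0.51 to 0.25, limma adjusted p = 0.676). The C1s to C1r ratio within arrays differed by 0.06 between the groups (exact permutation p = 0.686), less than its SD of 0.22 in controls and 0.13 in stressed rats.

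C2, which C1s cleaves, has 2 probes, at chr20:4071504-4071563 and chr20:4071119-4071178 on the plus strand, within 445 bases of the genome. They are printed together because they read the same message at different places. The first has 2 spots and the second 1 spot.
C2, A_44_P332606: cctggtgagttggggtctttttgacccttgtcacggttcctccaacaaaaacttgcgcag
C2, A_64_P222609: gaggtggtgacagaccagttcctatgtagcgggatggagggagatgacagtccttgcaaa

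The first C2 probe read -1.62, -1.91, -1.67 and -1.54 in controls and -1.81, -1.79, -1.74 and -1.63 in stressed rats. The second read -2.27, -2.46, -2.33 and -2.44 in controls and -2.59, -2.50, -2.32 and -2.57 in stressed rats. Both differences were negative and within the spread between rats, but the arrays were ordered differently: control 2 was the lowest array for the first probe, and stressed 1 for the second. The first differed by -0.06 (SE 0.0948, interval -0.28 to 0.16, limma adjusted p = 0.732) and the second by -0.12 (SE 0.0871, interval -0.32 to 0.08, adjusted p = 0.459).

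C3, the component on which all arms of the cascade converge, was measured at a single probe on the minus strand, placed by the files on the unassigned sequence of rn4, chrUn:64513437-64513496. It is shown because C3 had the most negative difference of the 9 genes.
C3: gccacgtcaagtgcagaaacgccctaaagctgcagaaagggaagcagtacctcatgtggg

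C3 read 1.10, 1.60, 0.93 and 1.25 in controls 1 to 4 and 0.85, 0.84, 1.53 and 0.47 in stressed rats 1 to 4. Stressed 1, 2 and 4 lay below all controls, whereas stressed 3 lay above all controls but control 2. The mean was 1.22 ± 0.28 (SD, n = 4) in controls and 0.92 ± 0.44 in stressed rats. The difference of -0.30 (SE 0.235, 0.814-fold, interval -0.84 to 0.25) was within this spread (limma adjusted p = 0.487, exact permutation p = 0.286). The 2 spots of the probe differed by an SD of at most 0.05 on any array, so the spread lay between arrays. Without stressed 3 the C3 difference was -0.50 and without stressed 4 it was -0.15, the extremes when single arrays were left out, and limma called neither. The C3 to C1qa ratio within arrays differed by -0.14 between the groups (exact permutation p = 0.543).

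The 2 regulators gave differences of opposite sign. Serping1, at chr3:67968812-67968871 on the minus strand, is shown by the last 30 bases of its probe, which hold AATAAA (capitals) as the C1qb probe does. Cd59, at chr3:89244707-89244766 on the plus strand, is named Cd59b in RefSeq today.
Serping1: taacagagtctacaAATAAAacttgcagac

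Cd59 was the only member with a higher mean in stressed rats. It read 3.28, 3.01, 3.11 and 3.12 in controls and 3.52, 3.33, 3.17 and 3.28 in stressed rats. Control 1 lay level with stressed 4 and above stressed 3, while controls 2, 3 and 4 lay below every stressed rat. The difference was 0.20 (SE 0.0975, 1.15-fold, interval -0.03 to 0.42), with a limma adjusted p of 0.289, the lowest of the 10 member probes, and an exact permutation p of 0.0571. With no scaling between arrays, which shifts all probes alike and takes the median over all of them from 0.06 to -0.14, the Cd59 difference was -0.0008. The other 9 member probes had a negative difference with quantile normalization. With no scaling they did too, but a downward shift of all probes alike cannot reverse a negative difference. Some of these signs reversed under other settings, listed at the end.

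Serping1 read 0.35, 0.12, -0.17 and -0.81 in controls and -0.62, -0.53, 0.03 and -0.50 in stressed rats. Controls held both the highest and the lowest array, and their SD of 0.50 was the largest of the 10 probes. The difference was -0.28 (SE 0.260, interval -0.88 to 0.32, limma adjusted p = 0.558). Leaving out control 4, the lowest array, moved it to -0.50, and leaving out control 1, the highest, to -0.12, neither called by limma.

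**Figure D2:**
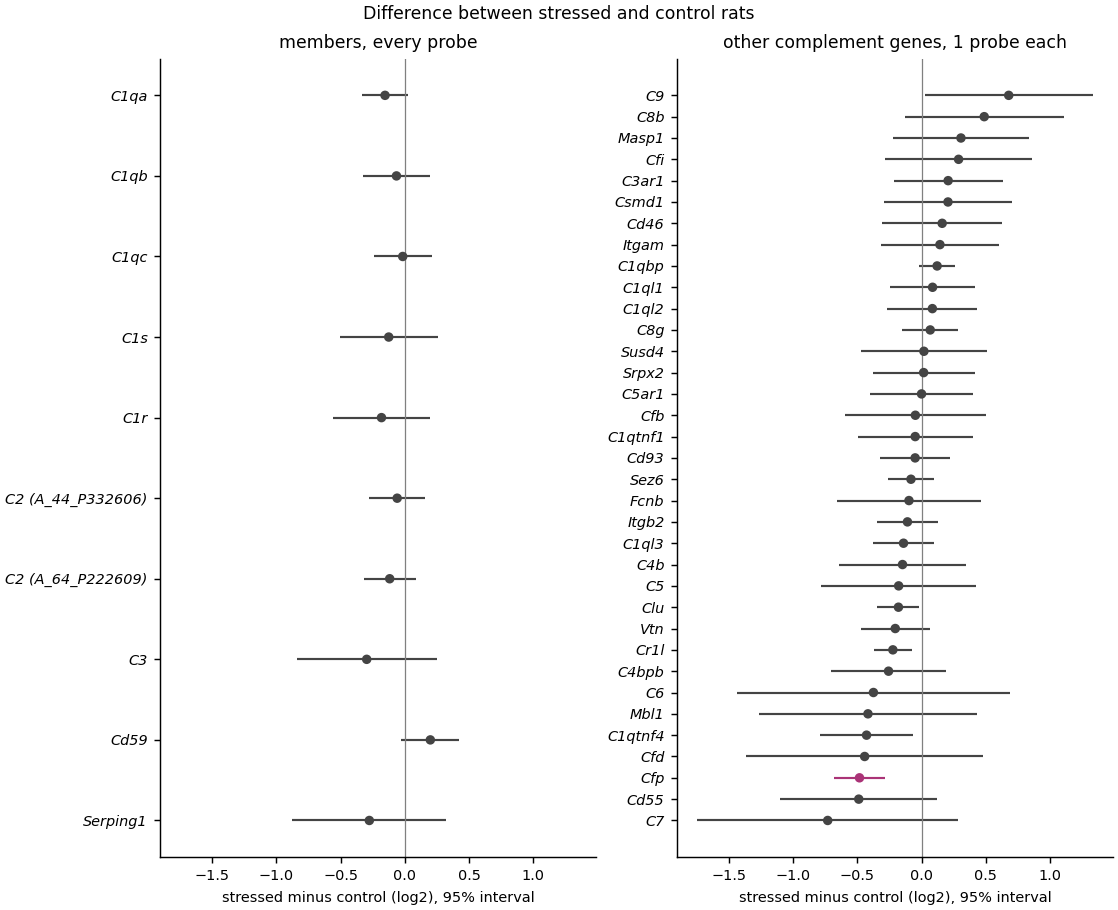
Log2 difference, stressed minus control (x axis), with its 95% interval from limma for every member probe (left) and for the 35 other complement genes tested, 1 probe each (right). Colour marks an adjusted p below 0.1. All 10 member intervals held 0, and of the other genes Cfp was called.

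The members differed in how much the rats varied. From the lowest to the highest array the log2 range was 1.16 for Serping1, 1.12 for C3, 0.77 for C1r and 0.65 for C1s. It was 0.37 for C1qa, 0.47 for C1qb and 0.36 for C1qc. Stressed 3 was the highest of the stressed rats at 7 of the 10 probes, and the lowest of them at Cd59. Control 2 was the highest of all arrays at 4 probes (C1qa, C1qc, C1s and C3) and control 1 at another 4 (C1qb, C1r, Serping1 and the second C2 probe).

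**Figure D3:**
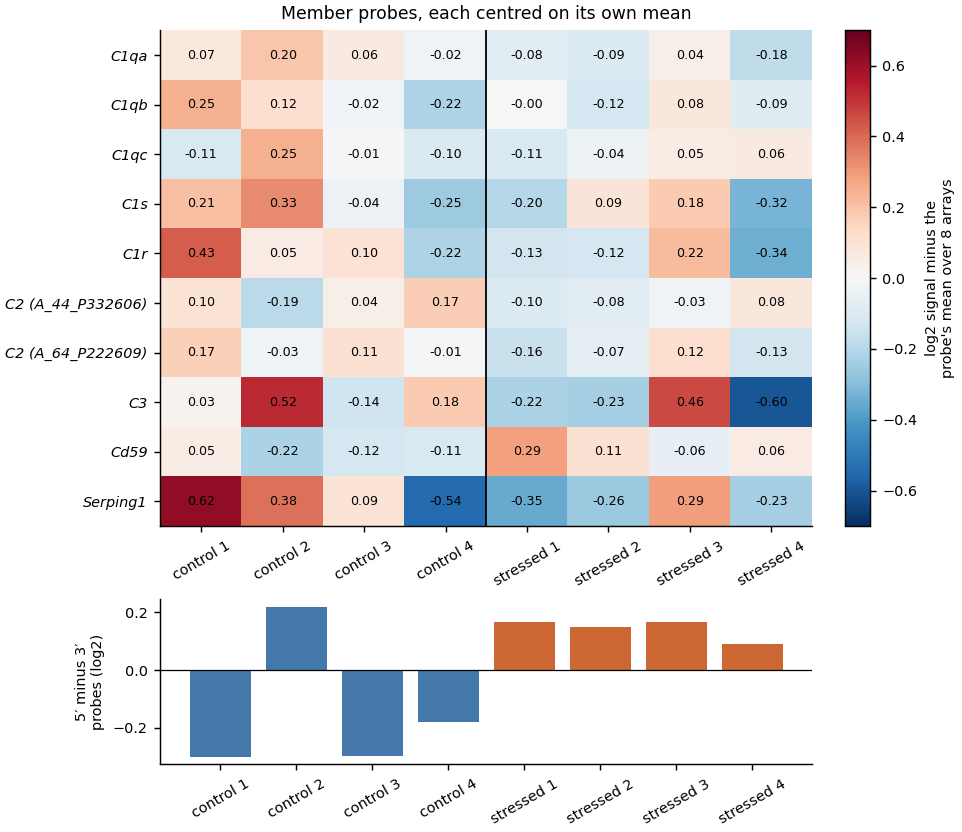
Scaled log2 signal of each member probe minus its mean over the 8 arrays (top, colour and printed value), above the 5′ minus 3′ log2 difference per array (bottom). Serping1 and C3 ranged most, from -0.54 to 0.62 and from -0.60 to 0.52, and control 2 had a positive 5′ minus 3′ difference like the stressed arrays.

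Markers of cell types were read on the same arrays. Of 15 microglia markers 14 were tested, 0 were called, and their median difference was 0.00. Their summed level, on a linear scale relative to the 75th percentile, ran from 32.5 to 34.4 in controls and from 31.2 to 36.3 in stressed rats. Of 10 astrocyte markers 0 were called, with a median difference of 0.25. The tested markers of microglia, astrocytes, neurons and oligodendrocytes were well above background on all 8 arrays, as spinal cord tissue has all of these cells. Of 6 tested blood leukocyte markers 0 were called, and the other 4 of that list were below background on every array.

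Some markers of Schwann cells, which myelinate peripheral nerve fibres, and of the meninges varied more between rats. The summed level of 3 Schwann cell markers ran from 0.197 to 3.502 in controls and from 0.165 to 0.856 in stressed rats. Prx, which encodes periaxin, a protein of Schwann cells, read -2.55, -3.72, -4.62 and -7.32 in controls 1 to 4 and -6.34, -5.78, -3.95 and -6.23 in stressed rats 1 to 4. The SD of Prx was 2.03 in controls and 1.11 in stressed rats, and that of Pmp2 was 1.78 and 1.12. Drp2, the third gene of the list, varied less (SD 0.43 and 0.39). The spread of this list, and relations to it below, thus rest mostly on Prx and Pmp2. The 9 markers of meninges and fibroblasts summed to between 3.38 and 9.21 in controls and between 3.39 and 7.31 in stressed rats. They too varied unevenly. Col3a1 had an SD of 1.19 in controls and 0.83 in stressed rats. The SDs of Foxc1 were 0.28 and 0.23, those of Slc22a6 0.29 and 0.16, and that of Pdgfra 0.09 in both groups. Single markers of other lists varied as well, such as Gfap of the astrocyte list (SD 0.80 and 0.57). Of these 2 lists limma called 0 of 3 and 0 of 9 genes, with median differences of -1.03 and -0.29.

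Serping1 varied along with these lists across the rats. Over the 8 arrays, Pearson's r between Serping1 and the mean log2 level of the Schwann cell markers was 0.984 (exact permutation p = 0.000124) and Spearman's rho 0.952 (exact permutation p = 0.00114). Without control 1 and control 4, the arrays farthest from the median, r was 0.976. Within groups r was 0.981 in controls and 0.989 in stressed rats. For C1r and the meninges and fibroblast list r was 0.912 (exact permutation p = 0.00191), rho was 0.905 (exact permutation p = 0.00456), and r was 0.899 without control 1 and stressed 1, the farthest arrays there. Within groups it was 0.984 in controls and 0.793 in stressed rats. C1r and the Schwann cell list gave r = 0.933, C1qb and that list r = 0.905 (0.749 without control 1 and control 4), and Serping1 and the meninges list r = 0.898.

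In all, 36 such relations were computed, 9 genes with 4 lists, after their values had been seen. With adjustment over the 36, Pearson's r passed 0.05 in 6 of them, and Spearman's rho in 1. The adjusted exact permutation p for Serping1 with Schwann cell markers was 0.00446 for r and 0.0410 for rho. That for C1r with the meninges list was 0.0203 for r and 0.0547 for rho. C1qb with the Schwann cell list had 0.0203 for r and 0.0981 for rho. C1s gave r = 0.813 with that list (adjusted exact permutation p = 0.0873). Both members of each pair were read on the same array and scaled by the same percentile. The part of these cells in the group differences of Serping1, C1r and C1qb was not tested.

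C3 moved with the microglia list. Pearson's r was 0.890 over the 8 arrays (exact permutation p = 0.00446, adjusted p = 0.0268), but Spearman's rho was 0.690 (exact permutation p = 0.0694, adjusted p = 0.192). Stressed 3 and control 2 were highest in both and stressed 4 lowest in both. Without stressed 3 and control 2, r was 0.738. C1qa with the same list gave r = 0.720 (exact permutation p = 0.0419, adjusted p = 0.137), with r = 0.938 within controls and 0.974 within stressed rats. C1qb and C1qc gave r = 0.482 and 0.557 there, or 0.332 and -0.674 without stressed 3 and control 2. High values within groups were not particular to microglia. With the astrocyte list C1qa gave r = 0.011 over the 8 arrays, but 0.835 within controls and 0.951 within stressed rats. C3 gave 0.280 with that list, and 0.924 and 0.910 within the groups.

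**Figure D4:**
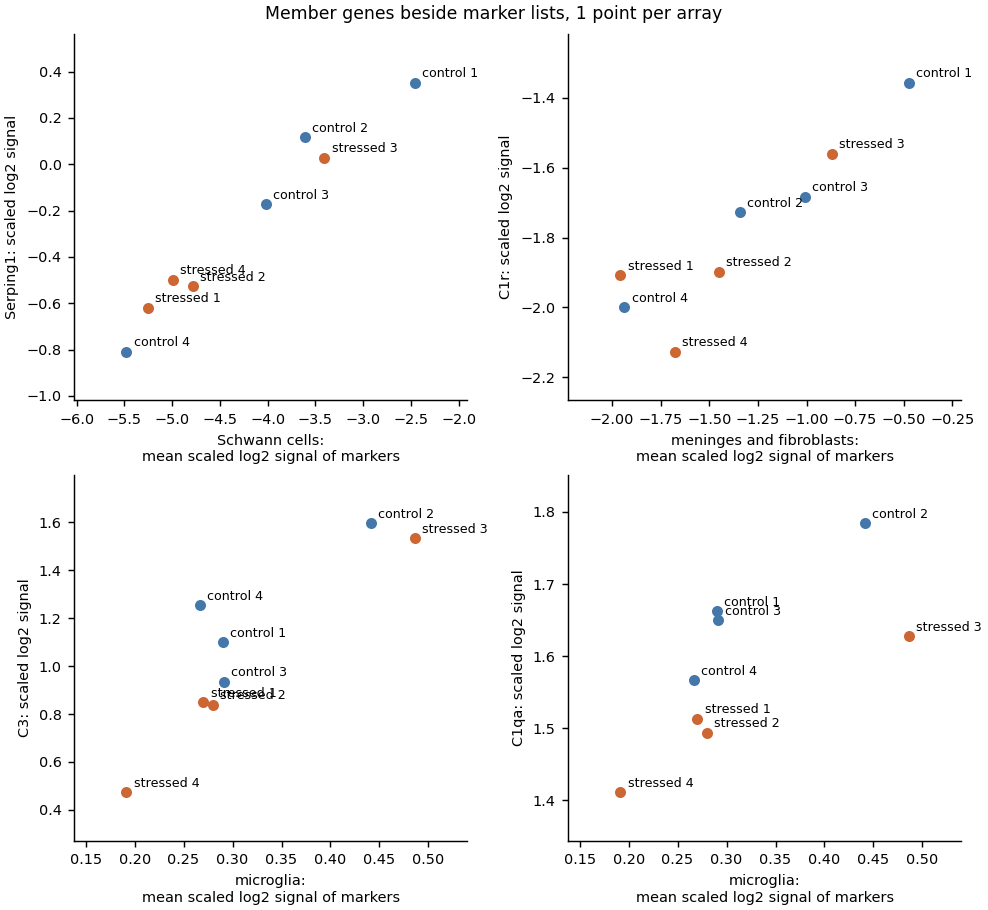
Scaled log2 signal of a member gene (y axis) against the mean scaled log2 signal of a marker list (x axis), 1 labelled point per rat, controls blue and stressed rats orange. Serping1 with Schwann cell markers (r = 0.984) and C1r with meninges and fibroblast markers (r = 0.912) lay near a line, with both groups along it.

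The gene symbols most like C1qa over the 8 arrays, among 13416, were Fam129b (r = 0.980), Pgpep1 (0.979), Agpat3 (0.978), Lmna (0.978) and Hmgn2 (0.977). These are descriptions over 8 points that share arrays and scaling. The other C1q chains were not near the top: C1qb ranked 1358 (r = 0.624) and C1qc 2565 (r = 0.458), while C3 ranked 296 (r = 0.824). Those most like C3 were Cdca3 (r = 0.977), Dynlt1 (0.967), Rgs12 (0.962), Nkx6-2 (0.959) and Pon2 (0.959). None of these 10 symbols passed limma at an adjusted p below 0.1.

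Of the other complement genes, 43 names of a list were on the array with 55 probes, and 35 genes were tested. Of the other 8, 7 were below background on all arrays. The list holds components, receptors, regulators and some proteins related only by a shared domain. Limma called 1 of the 35 genes at an adjusted p below 0.1, which fell, beside the 3.74% of all probes. By sign 21 of the 35 genes were lower and 14 higher in stressed rats, with a median difference of -0.05. Of all 23677 tested probes 9572 were lower.

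The called gene was Cfp, which encodes properdin, the stabilizer of the alternative pathway enzyme that also splits C3. Cfp read -3.78, -3.87, -3.70 and -3.84 in controls and -4.43, -4.28, -4.13 and -4.29 in stressed rats. Every stressed rat lay below every control. The gene fell by 0.48 on the log2 scale (SE 0.0848, 0.715-fold, limma adjusted p = 0.0588, exact permutation p = 0.0286). The call was lost when any array other than control 2 was left out. On all 8 arrays it was lost with normexp background correction (difference -0.25, adjusted p = 0.474) and with the replicate number as a block (adjusted p = 0.207). Without control 2 the adjusted p was 0.00498.

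Regulators that act beside Cd59 and Serping1 did not pass. Clu, clusterin, a soluble inhibitor of the terminal complex, read 4.55, 4.72, 4.58 and 4.64 in controls and 4.36, 4.42, 4.52 and 4.46 in stressed rats. These groups did not overlap, as at 4 of the 35 other complement genes and 12.1% of all probes. The Clu difference was -0.18 (SE 0.0708, limma adjusted p = 0.218). Cd55, which speeds decay of the C3-splitting enzymes, differed by -0.49 (SE 0.264, adjusted p = 0.326) at its brighter probe and by -0.05 at the other. Cr1l, another gene of the list, differed by -0.22 (SE 0.0642, adjusted p = 0.134) at its brighter probe, where the groups did not overlap. Its other probe differed by -0.02. Without control 2, when 42.4% of all probes were called, the brighter Cr1l probe had a limma adjusted p of 0.0308.

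Other components and receptors of the cascade did not pass either. C4b, the partner of C2, differed by -0.15 (SE 0.214, limma adjusted p = 0.704). With 1 probe per gene, the terminal components C9 and C8b had the most positive differences, 0.68 (SE 0.283, adjusted p = 0.236) and 0.49 (SE 0.267, adjusted p = 0.333). Masp1 differed by 0.72 (SE 0.255, adjusted p = 0.188) at a dimmer probe and by 0.31 (SE 0.228, adjusted p = 0.46) at its brightest. C9 and C8b were dim, with control means of -7.00 for C9 and -5.54 for C8b. With normexp correction their differences were 0.22 and 0.21. C7, another terminal component, had the most negative, -0.73 (SE 0.440, adjusted p = 0.370). It read -0.52, -1.69, -0.71 and -1.70 in controls and -2.86, -1.54, -1.04 and -2.10 in stressed rats, so that both groups spanned over 1 log2 unit. C3ar1, the receptor for the C3a fragment, differed by 0.21 (SE 0.184, adjusted p = 0.537). Itgam, a chain of complement receptor CR3, differed by 0.14 (SE 0.200, adjusted p = 0.696) at its brighter probe and by -0.35 (SE 0.352, adjusted p = 0.586) at the other.

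Without control 2, when 42.4% of all probes were called, 8 of the 35 other complement genes were called and again 0 of the 10 member probes. The lowest adjusted p of a member was then 0.172, for the first C2 probe (difference -0.13, SE 0.0672). C1qa differed by -0.11 (SE 0.0681, adjusted p = 0.238) and Cd59 by 0.16 (SE 0.0950, adjusted p = 0.243). C3 differed by -0.17 (SE 0.237, adjusted p = 0.613) without that array. Of the 10 member probes 8 then had a lower mean in stressed rats.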

How the data were processed

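The 8 arrays were read from the scanner files the authors deposited. These hold intensity values made with Agilent Feature Extraction 10.7.3.1, background-subtracted and detrended per the file headers. The deposited value table holds the same intensity rounded, with no scaling between arrays, which was checked at every spot. The study names no normalization for this step in the sources used here. The 4259 control spots were left out and spots marked as outliers were set to missing. The log2 intensity had the 75th percentile of its array, taken over all 58717 other spots, subtracted, and spots of a probe were averaged. That set of spots was chosen with the counts under 3 other sets known.

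Probes entered the test when their signal cleared the background on 4 or more arrays, in at least 0.5 of their spots. The test was limma 3.58.1 (lmFit and eBayes, no covariate) in R 4.3.3, two-sided, with Benjamini-Hochberg adjustment over 23677 probes. Single values were compared by a two-sided exact permutation test over 70 choices of 4 arrays, and relations over all orders of 8 arrays (Python 3.11.15, numpy 2.4.6, scipy 1.17.1, pandas 2.3.3). Figures were drawn with matplotlib 3.10.9. The fit was tested on simulated data with independent noise at each probe and a shift larger than any member difference. Those data held no differences between whole arrays, such as that of control 2, so they do not show how the fit handles them. Arrays give no counts, so their number limits the precision. The labels name 1 sample per array without naming litters, so p values measure the spread between these samples.

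The 5′ minus 3′ difference came from 1887 transcripts whose outermost probes lie 300 bases or more apart, as a median centred over arrays. The members and lists were chosen with earlier results of these data known. Named are all member probes and, of other complement genes, those called, the 2 highest and 2 lowest differences, and C3ar1, Clu, C4b, Itgam and Cd55. Cr1l and Masp1 were added after their values had been seen. Some genes of the lists are not reported here and were left out of their lists. The probe with the highest mean signal stands for a gene. RefSeq matched 9 of 9 member genes. Lists for oligodendrocytes, neurons, endothelium and red blood cells were also read, with median differences of 0.13, 0.02, 0.16 and -0.07, and limma called 1, 0, 1 and 0 of their genes. The alternatives were normexp correction (offset 50), quantile normalization, no scaling, the deposited values of the series, other filters on dim probes, the median of spots, outlier spots kept, other moderation, array weights, the replicate block, the 5′ minus 3′ covariate, 1 probe per gene and leaving out each array. The 3 other spot sets for the percentile were added after seeing the data. Protein sequences, miRNA arrays and other assays of the study were not used here.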

Additional observations from a re-analysis of the deposited data

How the results depend on the processing

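At an adjusted p below 0.1, limma called 0 member probes under every alternative run except 2. With no scaling between arrays it called 1 (C1qa, -0.35, adjusted p = 0.0922), and the median difference of the member probes moved to -0.32 while that of all probes moved to -0.14, since leaving out the scaling shifts all probes alike. With array weights it called 3 (C1qa, adjusted p = 0.0979, the second C2 probe, 0.0973, and Cd59, 0.0659). At an adjusted p below 0.05 it called 0 throughout. The number of all tested probes called was 215 with normexp, 1794 with no scaling, 3010 (of 30357 then tested) with no filter on dim probes, 11983 with array weights, 2393 with the 5′ minus 3′ covariate, 0 with the replicate block, and between 0 and 10038 with 1 array left out, the highest without control 2. The number of other complement genes called was 0 with normexp, 3 with no scaling, 2 with trend and robust moderation, 3 with no moderation, 11 with array weights, 5 with the covariate, 0 with the replicate block, 2 with the percentile over averaged probes, and between 0 and 8 with 1 array left out. Signs reversed for Cd59 (-0.0008) and Itgam (-0.0568) with no scaling, for C1qc (0.0246) and C1s (0.0001) with array weights, and for C2 at its first probe (0.1002) and Itgam (-0.0676) with the covariate. With 1 array left out C1qc ranged from -0.0553 to 0.0641 and C1qb from -0.149 to 0.0072. The cause was not tested.

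Same-numbered rats of the groups deviated together with r of 0.095, 0.12, -0.087 and 0.305, so the numbers were not taken as pairs. With the replicate block 0 of the 10 member probes and 0 of the 35 other complement genes were called. Of the 3 percentile sets added after seeing the data, each gave 0 member calls and between 872 and 1074 calls over all probes. Intervals of C3 and Serping1, over 1 log2 unit wide, limit what 4 arrays per group can show for them.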
